A study of Mus musculus with 12 samples.

Results

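The Slc25 family is the largest family of carriers in the inner mitochondrial membrane. It was taken here as every protein-coding gene of the count table with a symbol of the form Slc25a plus a number, apart from the carnitine carrier Slc25a20. The rule found 46 genes among 55401 rows. Of these, 38 passed the filter on low counts and were tested, and 8 did not. Bulk RNA was sequenced from the hearts of C57BL/6J mice, an inbred strain, all wild type. There were 4 groups of 3 libraries each: exercised and sedentary females, and exercised and sedentary males. Running took place on a treadmill at 1 km/h, with sessions of 45 min on 5 days of each week over 6 weeks. Sedentary mice were matched for age and stayed in the cage for that time. The age in weeks was not given in the sources used here, nor how each heart was trimmed. The series asks which transcripts exercise changes in the heart and whether females and males differ in this.

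Carriers of this family let small molecules cross a membrane that is otherwise closed to them. Adenine nucleotide and phosphate carriers bring ADP and phosphate to the ATP synthase and take ATP out, a traffic on which the beating heart depends. Others move carboxylic acids and electrons between cytosol and matrix, import cofactors such as coenzyme A and NAD, or carry iron, glutathione and amino acids.

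Each library held between 22204349 and 32566240 counts in total. The highest total was that of female sedentary 2, in which 27.3% of counts fell on the 37 genes of the mitochondrial genome, which were at 0 in the other 11 libraries. All of the libraries read as heart muscle, with a summed level of 59800 to 70100 CPM (counts scaled to library size) for 8 cardiomyocyte markers. Their content of other tissue differed. The atrial light chain Myl7 stood at 107 CPM in female exercised 2, 65.6 CPM in female sedentary 1 and 23.0 CPM in female sedentary 2, and at 0.41 to 2.33 CPM in the other 9 libraries. Red cell transcripts reached 3630 CPM in sedentary females, and fat cell transcripts reached 105 CPM in exercised females. In bulk tissue, fewer cells of a type and less RNA per cell cannot be told apart.

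The heart holds a pair of close adenine nucleotide carriers, Slc25a4 (the muscle form, on chromosome 8) and Slc25a5 (the broadly expressed form, on the X chromosome). The first 120 bases of their coding sequences, from the GENCODE M21 transcripts of GRCm38, are shown to let the reader see how reads from them can be told apart. Capitals mark the 26 positions at which they differ in this stretch.
Slc25a4: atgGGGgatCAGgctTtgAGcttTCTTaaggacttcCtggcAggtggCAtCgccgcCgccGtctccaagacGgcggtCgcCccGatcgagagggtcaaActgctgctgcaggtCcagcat
Slc25a5: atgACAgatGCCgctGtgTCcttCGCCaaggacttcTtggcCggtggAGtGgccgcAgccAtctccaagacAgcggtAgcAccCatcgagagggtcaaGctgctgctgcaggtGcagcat
Over the whole coding sequence of 894 bases, 77.4% of positions were identical, and the longest identical run was 20 bases. The other close pairs were further apart, with 69.7% for Slc25a12 and Slc25a13 and 63.8% for Slc25a28 and Slc25a37. Slc25a5 is uncertain for another reason: 46.6% of the 50-base stretches of its transcript occur also in the pseudogene copies Gm5560, Gm5529 and Slc25a5-ps. Those rows held at most 107 counts in a library, and Slc25a5 held at least 5487. Slc25a33 shares 12.6% of such stretches with the antisense gene Gm13068, whose counts came to 2.42% of those of Slc25a33. Slc25a36 shares 11.8% with Gm13217, whose counts came to 5.13% of its own. Of the tested members, 10 overlap exons of an antisense gene, and without the strand setting reads of such partners cannot be told apart.

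RefSeq lists a promoter (GRCm38.p6) for 35 of the 46 members. In the 250 bases before the start, the cyclic AMP response element TGACGTCA, a palindrome and so the same on both strands, was present in 2 of these 35 members (5.71%) and in 1.77% of 27025 genes. The members were Slc25a25 and Slc25a36, and their promoters are shown with the element in capitals because it was the only motif of those searched that a member held.
Slc25a25, chr2:32424067-32424316, minus strand: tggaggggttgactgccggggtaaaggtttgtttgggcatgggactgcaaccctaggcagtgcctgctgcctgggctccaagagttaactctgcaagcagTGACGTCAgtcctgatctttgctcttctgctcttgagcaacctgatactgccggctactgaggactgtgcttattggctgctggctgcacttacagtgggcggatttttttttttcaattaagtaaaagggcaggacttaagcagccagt
Slc25a36, chr9:97111042-97111291, minus strand: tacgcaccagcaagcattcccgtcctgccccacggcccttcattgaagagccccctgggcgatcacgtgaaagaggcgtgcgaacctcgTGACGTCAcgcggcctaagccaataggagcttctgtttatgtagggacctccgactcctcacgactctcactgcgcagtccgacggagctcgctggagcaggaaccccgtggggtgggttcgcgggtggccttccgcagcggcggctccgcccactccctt
Slc25a25 has 3 listed promoters, and the one shown is the only one of them with the element. The letters CGCATGCG, the palindromic core of the NRF1 motif, were found in 0 of 35 members and in 1.75% of genes. The letters TNAAGGTCA, bound by estrogen-related receptors, were found on either strand in 0 of 35 members and in 1.3% of genes. A match describes letters, not a bound site, and no match says only that these letters are not in this window.

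Adenine nucleotide and phosphate carriers made up most of the family's reads. Summed over all members, the family took 9049 ± 180 CPM in exercised females, 8696 ± 399 CPM in sedentary females, 9544 ± 267 CPM in exercised males and 8967 ± 188 CPM in sedentary males (SD, n = 3 each). Slc25a4 alone held 56.6% to 59.9% of the family's reads in the 12 libraries, and together with the phosphate carrier Slc25a3 it held 74.4% to 76.8%. On a scale of CPM per kilobase of principal transcript, which allows genes to be compared, Slc25a4 averaged 2760, Slc25a3 averaged 964, the oxoglutarate carrier Slc25a11 averaged 346 and Slc25a5 averaged 207. On this scale the ranges of these 4 over the 12 libraries did not overlap with one another or with the next gene. Per kilobase of all annotated exons, however, Slc25a3 averaged 279.9 and Slc25a11 averaged 279, so the gap between these 2 depends on the length used. Below the 4, per kilobase of principal transcript, came the orphan carrier Slc25a34 at 70.5 and the glutathione carrier Slc25a39 at 59.2. The aspartate-glutamate carriers Slc25a13 at 51.2 and Slc25a12 at 38.3 followed. Of the 37 steps between neighbours among the tested members, 30 overlapped over the 12 libraries, so most of the order below Slc25a5 is not resolved. The steps from Slc25a34 to Slc25a39 and from Slc25a39 to Slc25a13 were among those that overlapped. The lowest tested member, the orphan Slc25a53, stood at 0.636 CPM per kilobase.

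**Figure D1:**
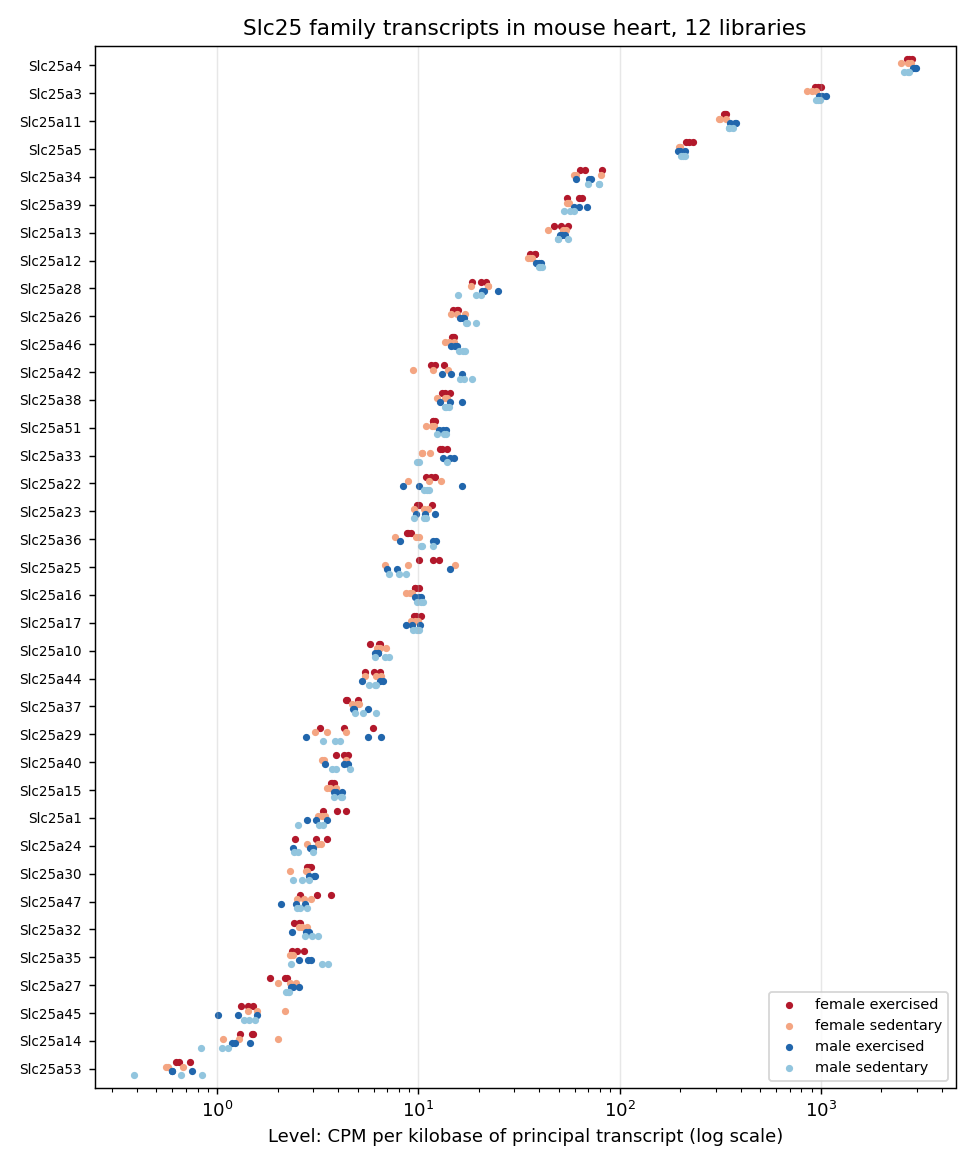
Levels of 37 of the 38 tested members in the 12 libraries, in CPM per kilobase of principal transcript on a log axis, with 1 dot per library and colours for the 4 groups. On this scale Slc25a4, Slc25a3, Slc25a11 and Slc25a5 stand apart at the top at 2760, 964, 346 and 207, and most genes below overlap their neighbours. The gap between Slc25a3 and Slc25a11 depends on the length used.

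The 8 untested members held between 1 and 94 counts in all 12 libraries together. They were the ornithine carrier Slc25a2, the glutamate carrier Slc25a18, the oxodicarboxylate carrier Slc25a21, the testis-type adenine nucleotide carrier Slc25a31, the ATP-magnesium carrier Slc25a41, and Slc25a43, Slc25a48 and Slc25a54. Slc25a54 was at 0 counts in 11 libraries, where a count of 0 allows up to 3 counts, or 0.113 to 0.142 CPM depending on the library. This floor covers counting error only.

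Exercise left no member past the threshold in either sex. In exercised against sedentary females, 0 of 38 tested members were called at an adjusted p of 0.05 by edgeR's quasi-likelihood test, with p-values adjusted over 16213 genes by the Benjamini-Hochberg method, where 0.0% of all genes were called. DESeq2 and voom also called 0 members, where they called 1 and 0 of all genes. At an unadjusted p under 0.05 there were 2 higher and 0 lower members, against 1.89% and 2.04% of all genes. The log2 fold change was above 0 for 27 of 38 members, against 50.1% of all genes, with a median of 0.056 for the members and 0.00028 for all genes. In the same contrast all 8 cardiomyocyte markers lay above 0, with a median of 0.057. All 5 tested red cell genes were lower at an unadjusted p under 0.05, with a median of -3.96. The part of tissue content in the members' values was not tested. Members ran from -0.29 to 0.30, with a median SE of 0.10. Libraries of the 2 groups did not overlap for 5 members, all higher in exercised females, against 5.42% of genes higher and 4.37% lower. They included Slc25a33, Slc25a5, Slc25a16 and Slc25a30.

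Among exercised against sedentary males, 0 of 38 members were called by the same test, where 0.0% of all genes were called. DESeq2 and voom called 0 members as well, where they called 24 and 0 of all genes. At an unadjusted p under 0.05 there were 4 higher and 0 lower members, against 4.24% and 3.6% of all genes. The log2 fold change was above 0 for 20 of 38 members, against 50.1% of all genes, with a median of 0.014 for the members and 0.00068 for all genes. Groups did not overlap for 4 members that were higher in exercised males (Slc25a4, Slc25a14, Slc25a27 and Slc25a28) and for 2 that were lower (Slc25a26 and Slc25a46), against 6.17% and 6.16% of all genes. Over both sexes, 15 members lay above 0 in females and in males, 6 lay below 0 in both, 12 lay above 0 in females and below 0 in males, and 5 the reverse. No member was free of overlap in both sexes, where 0.407% of all genes were higher and 0.185% lower without overlap in both. At such shares, a count of 0 among 38 says little about the members.

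**Figure D2:**
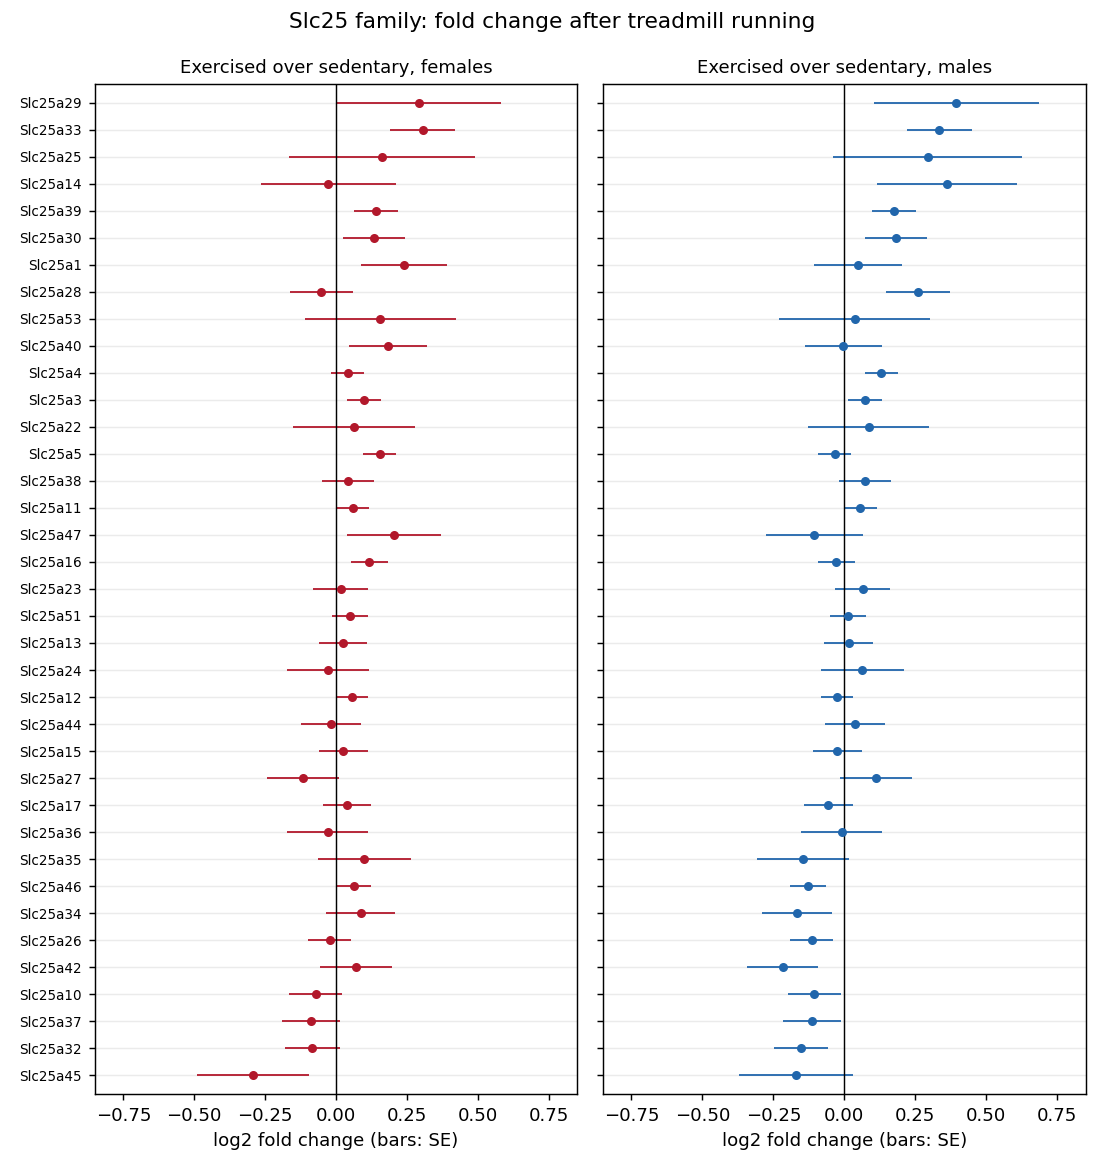
Log2 fold change of 37 of the 38 tested members for exercised over sedentary hearts in females and in males, with SE as bars, ordered by the mean of both sexes. Members ran from -0.29 to 0.30 in females, and points in males lie on both sides of 0.

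Slc25a33 had the lowest unadjusted p of all members in females and in males. This gene (chr4:149744036-149774277, minus strand, GRCm38), which encodes a carrier that brings pyrimidine nucleotides into mitochondria, stood at 26.4, 24.2 and 24.7 CPM in the exercised females, against 19.6, 19.8 and 21.7 CPM in sedentary females. In males it stood at 27.1, 28.4 and 25.2 CPM in exercised hearts, against 19.1, 26.3 and 18.7 CPM in sedentary hearts. All exercised females were above all sedentary females, whereas male sedentary 2 lay among the exercised males. The log2 fold change of Slc25a33 was 0.30 ± 0.11 (SE) in females, with an adjusted p of 1.00 by edgeR's quasi-likelihood test, and 0.33 ± 0.11 in males, with an adjusted p of 0.615. Averaged over the sexes, Slc25a33 was 0.32 ± 0.08 on the log2 scale, with an unadjusted p of 0.00146 and an adjusted p of 0.782 by edgeR's quasi-likelihood test. When each library was left out in turn, its value in males ran from 0.25 (without male sedentary 3) to 0.51 (without male sedentary 2). Its partner Slc25a36, which also carries pyrimidine nucleotides, stood at 45.8, 46.7 and 48.2 CPM in the exercised females, against 51.01, 39.9 and 52.8 CPM in sedentary females. In males Slc25a36 stood at 42.3, 64.4 and 61.8 CPM in exercised hearts, against 54.4, 53.6 and 61.5 CPM in sedentary hearts. The groups overlapped in both sexes.

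**Figure D3:**
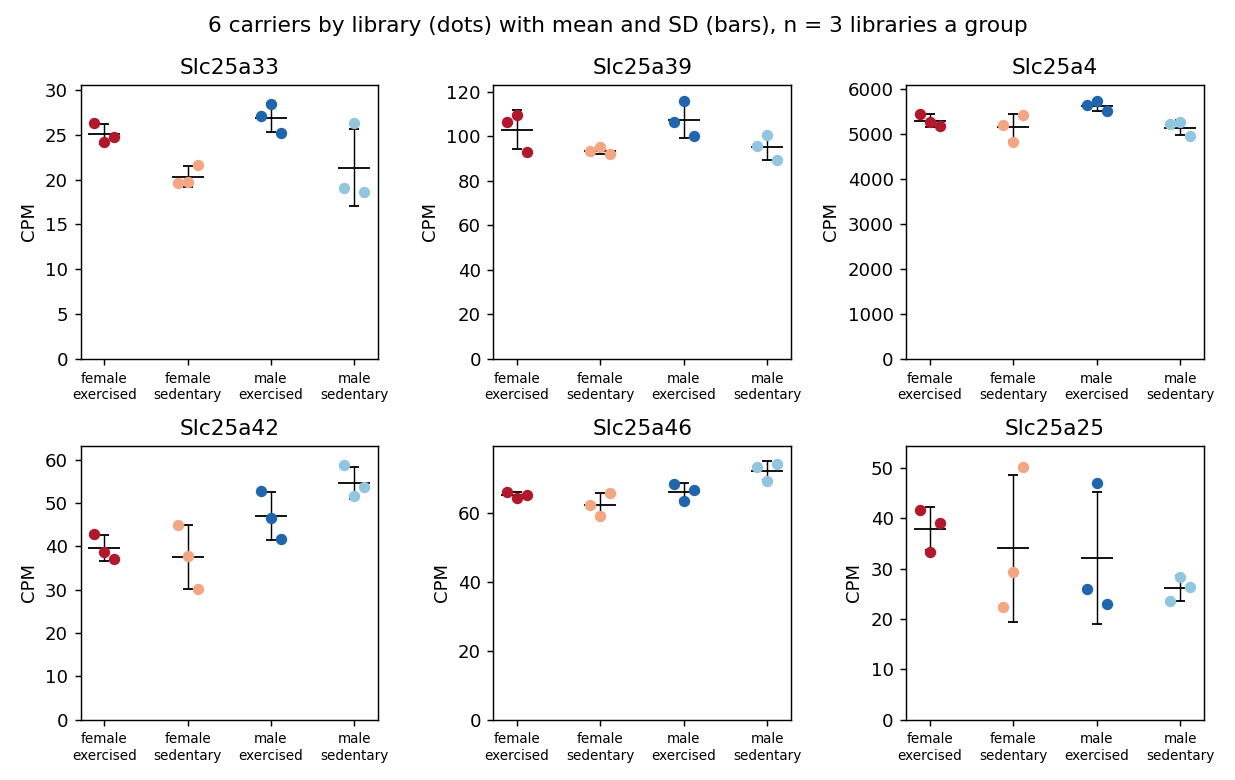
Levels of 6 carriers in CPM by library, with 1 dot per library, and the mean and SD of each group of 3 as bars. Slc25a33 lies higher in all exercised than in all sedentary females, and Slc25a25 varies within groups from 22.4 to 50.3 CPM among sedentary females.

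The adenine nucleotide and phosphate carriers did not pass the test with exercise. Slc25a4 stood at 5452, 5278 and 5182 CPM in the exercised females, against 5217, 4830 and 5422 CPM in sedentary females. In males Slc25a4 stood at 5663, 5748 and 5509 CPM in exercised hearts, against 5223, 5266 and 4964 CPM in sedentary hearts. The groups overlapped in females and did not overlap in males, where the log2 fold change was 0.13 ± 0.06 (adjusted p of 0.627, edgeR's quasi-likelihood test). Slc25a5 stood at 274, 287 and 264 CPM in the exercised females, against 245, 247 and 248 CPM in sedentary females, with no overlap and a log2 fold change of 0.15 ± 0.06. In males Slc25a5 stood at 262, 247 and 241 CPM in exercised hearts, against 256, 252 and 262 CPM in sedentary hearts, and the groups overlapped. The difference of the exercise effects in females and males was 0.19 ± 0.08 for Slc25a5, with an adjusted p of 0.930 by edgeR's quasi-likelihood test. The ratio of Slc25a4 to Slc25a5 reads was 19.3 ± 0.785 in exercised females, 20.9 ± 1.21 in sedentary females, 22.6 ± 0.880 in exercised males and 20.1 ± 1.02 in sedentary males (SD, n = 3 each). Slc25a3, which imports phosphate, stood at 1554, 1612 and 1509 CPM in the exercised females, against 1465, 1371 and 1529 CPM in sedentary females, and at 1627, 1714 and 1577 CPM in exercised males, against 1519, 1592 and 1568 CPM in sedentary males. Its groups overlapped in both sexes.

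Slc25a25, an ATP-magnesium and phosphate carrier that responds to calcium, had the highest spread within groups of all tested members, with a coefficient of variation of 30.4%, against a median of 8.33% over the 38. It stood at 41.6, 33.4 and 39.01 CPM in the exercised females, against 22.4, 29.4 and 50.3 CPM in sedentary females. In males it stood at 25.96, 47.1 and 23.1 CPM in exercised hearts, against 23.5, 28.5 and 26.4 CPM in sedentary hearts. One library in each of the sedentary female and exercised male groups stood far above the other two. Exons of the antisense gene Naif1 overlap Slc25a25. Of the tested members, 4 had a coefficient of variation over 20% and 10 had one under 5%. The lowest was that of Slc25a12, at 2.60%.

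Carriers of the malate-aspartate shuttle help to pass electrons from the cytosol to the matrix. Slc25a11, the oxoglutarate-malate carrier, stood at 568, 574 and 579 CPM in the exercised females, against 535, 540 and 579 CPM in sedentary females, and at 645, 650 and 603 CPM in exercised males, against 598, 629 and 597 CPM in sedentary males. Slc25a12, the calcium-sensitive aspartate-glutamate carrier of muscle and brain, stood at 228, 240 and 242 CPM in the exercised females, against 227, 233 and 223 CPM in sedentary females, and at 259, 252 and 244 CPM in exercised males, against 260, 253 and 256 CPM in sedentary males. Both had exercised and sedentary groups that overlapped within each sex. Slc25a13, its liver-rich paralog, stood at 159, 147 and 173 CPM in the exercised females, against 138, 163 and 170 CPM in sedentary females, and at 157, 162 and 166 CPM in exercised males, against 155, 172 and 154 CPM in sedentary males. The ratio of Slc25a12 to Slc25a13 reads lay between 1.31 and 1.69 in the 12 libraries.

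The remaining carboxylate carriers were lower in level. Slc25a10, which exchanges dicarboxylates for phosphate, stood at 12.9, 13.04 and 11.6 CPM in the exercised females, against 12.5, 13.9 and 13.1 CPM in sedentary females, and at 12.7, 12.7 and 12.4 CPM in exercised males, against 14.4, 13.8 and 12.4 CPM in sedentary males. Slc25a1, which exports citrate, stood at 5.62, 7.32 and 6.59 CPM in the exercised females, against 5.54, 5.27 and 5.75 CPM in sedentary females, and at 5.87, 4.68 and 5.15 CPM in exercised males, against 5.62, 4.23 and 5.34 CPM in sedentary males. Its highest level was in female exercised 2, the library with the most Adipoq, a fat cell transcript, at 10.1 CPM, and the part of fat cells in this was not tested. Slc25a22, a glutamate carrier, stood at 34.2, 32.6 and 30.8 CPM in the exercised females, against 36.5, 31.8 and 24.9 CPM in sedentary females, and at 46.3, 28.4 and 23.6 CPM in exercised males, against 30.97, 29.99 and 31.7 CPM in sedentary males. Its spread within exercised males, with values from 23.6 to 46.3 CPM, was wider than any difference between group means.

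The glutathione and iron carriers showed small differences. Slc25a39, which imports glutathione, stood at 106, 110 and 92.9 CPM in the exercised females, against 93.4, 95.0 and 91.9 CPM in sedentary females, and at 106, 116 and 99.96 CPM in exercised males, against 95.5, 100.4 and 89.1 CPM in sedentary males. Its log2 fold change was 0.14 ± 0.08 in females and 0.18 ± 0.08 in males, with adjusted p of 1.00 and 0.630 by edgeR's quasi-likelihood test, and exercised and sedentary libraries overlapped in both sexes. Slc25a28, a mitoferrin that imports iron, stood at 33.3, 31.4 and 28.4 CPM in the exercised females, against 34.2, 34.03 and 28.2 CPM in sedentary females. In males Slc25a28 stood at 31.8, 37.99 and 32.4 CPM in exercised hearts, against 29.8, 31.3 and 24.0 CPM in sedentary hearts, without overlap, and the log2 fold change was 0.26 ± 0.11 (adjusted p of 0.627, edgeR's quasi-likelihood test), and 0.15 without male sedentary 3. Slc25a37, the mitoferrin of red cell precursors, stood at 18.3, 18.4 and 20.97 CPM in the exercised females, against 21.1, 19.6 and 20.6 CPM in sedentary females. Summed red cell transcripts ran from 34.6 to 3630 CPM among the sedentary female libraries, and Slc25a37 in them ran from 19.6 to 21.1 CPM. The part of red cells in the values of Slc25a37 was not tested. Exons of the antisense genes Gm31748 and Gm27223 overlap Slc25a37. In males Slc25a37 stood at 20.1, 19.8 and 23.3 CPM in exercised hearts, against 25.8, 22.3 and 20.2 CPM in sedentary hearts.

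Other named members did not pass the test either. By smallest p among members below 0, these were in females the orphan Slc25a45 (-0.29 ± 0.20), Slc25a27 (-0.12 ± 0.13), which resembles the uncoupling proteins, and the folate carrier Slc25a32 (-0.08 ± 0.10). In males they were Slc25a42 (-0.22 ± 0.13), the orphan Slc25a34 (-0.17 ± 0.12), Slc25a32 (-0.15 ± 0.10), Slc25a46 (-0.13 ± 0.06), which sits in the outer membrane, and Slc25a26 (-0.12 ± 0.08), which imports S-adenosylmethionine. Slc25a34 stood at 218, 171 and 180 CPM in the exercised females, against 215, 163 and 158 CPM in sedentary females, and at 188, 192 and 162 CPM in exercised males, against 186, 212 and 212 CPM in sedentary males. Slc25a30, another relative of the uncoupling proteins, stood at 10.6, 10.1 and 10.3 CPM in the exercised females, against 8.29, 9.94 and 10.03 CPM in sedentary females, without overlap. In males it stood at 10.2, 10.9 and 10.99 CPM in exercised hearts, against 8.60, 9.47 and 10.3 CPM in sedentary hearts, and the groups overlapped.

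The exercise effect did not differ between females and males for any member past the threshold. Of the 38 members, 0 were called for the difference by edgeR's quasi-likelihood test, where 0.0% of all genes were called. DESeq2 and voom called 0 members too, where they called 12 and 0 of all genes. At an unadjusted p under 0.05 there were 2 higher and 0 lower, Slc25a5 and Slc25a46, against 2.34% and 2.4% of all genes. Slc25a46 differed by 0.19 ± 0.09 and Slc25a28 by -0.31 ± 0.16 on the log2 scale. For the average effect of exercise over both sexes, DESeq2 and voom called 0 members, where they called 11 and 0 of all genes. For this average, edgeR's quasi-likelihood test called 0 of 38, where 0.0% of all genes were called. There, 2 members were higher at an unadjusted p under 0.05, Slc25a33 and Slc25a39, and 0 were lower, against 3.5% and 2.78% of all genes, and 26 of 38 lay above 0, against 50.5% of all genes.

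Between the sexes, 1 member passed. In sedentary females against sedentary males, the coenzyme A carrier Slc25a42 (chr8:70184340-70212305, minus strand, GRCm38) was the only member called among 38, where 2.21% of all genes were called and 1.36% were called as lower. It stood at 44.9, 37.7 and 30.1 CPM in sedentary females, against 58.8, 51.6 and 53.7 CPM in sedentary males, with no overlap. The log2 fold change was -0.54 ± 0.13, with an adjusted p of 0.046 by edgeR's quasi-likelihood test, which ran from 0.00399 (DESeq2) to 0.159 (without male sedentary 3) over the settings run. In exercised hearts it stood at 42.9, 38.7 and 37.1 CPM in females, against 52.8, 46.6 and 41.7 CPM in males, which overlapped, with a log2 fold change of -0.25 ± 0.13 and an adjusted p of 0.549 by the same test. These values are not shown to differ, since the difference of the exercise effects, which is the same quantity, was 0.29 ± 0.18 for Slc25a42 with an adjusted p of 0.930 by edgeR's quasi-likelihood test. The call for sedentary hearts rests on the libraries and settings used. It remained without female sedentary 1 (-0.69), male exercised 1 or male exercised 3, and was lost when any 1 of the other 9 libraries was left out, with the value between -0.58 and -0.40. It was also lost with voom (adjusted p of 0.0516), with only the sedentary groups fitted (adjusted p of 0.0911), and with the atrial score as a covariate (-0.69, adjusted p of 0.0715). With the 9 libraries low in atrial transcripts it was -0.86 with an adjusted p of 0.0753, a larger value of the same sign, and that fit left 1 sedentary female library, which is assumed to vary like the other groups.

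More members lay lower than higher in sedentary females against sedentary males. At an unadjusted p under 0.05 there were 1 higher and 8 lower members, against 9.11% and 9.28% of all genes, and 26 of 38 lay below 0, against 47.6% of all genes. The median was -0.057 for the members and 0.014 for all genes. Groups did not overlap for 9 members, all lower in sedentary females, against 12.8% of all genes lower and 12.2% higher. These were Slc25a5, Slc25a11, Slc25a12, Slc25a16, Slc25a26, Slc25a36, Slc25a42, Slc25a46 and Slc25a51. The outer membrane protein Slc25a46 averaged 62.4 ± 3.40 CPM in sedentary females and 72.3 ± 2.63 CPM in sedentary males (SD, n = 3 each), with a log2 fold change of -0.21 ± 0.06 and an adjusted p of 0.0921 by edgeR's quasi-likelihood test. Slc25a12 averaged 228 ± 5.10 CPM and 256 ± 3.93 CPM in the same groups, with -0.17 ± 0.06 and an adjusted p of 0.13 by that test. On the other side of 0 was the X-linked Slc25a14, at 3.54, 1.89 and 2.25 CPM in sedentary females, against 1.47, 1.86 and 1.98 CPM in sedentary males, which overlapped, with a log2 fold change of 0.54 ± 0.24, and of 0.23 without female sedentary 1.

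In exercised females against exercised males, 0 of 38 members were called by edgeR's quasi-likelihood test, where 0.16% of all genes were called. DESeq2 and voom called 0 members, where they called 167 and 22 of all genes. At an unadjusted p under 0.05 there were 2 higher and 2 lower, against 4.84% and 5.0% of all genes, and 27 of 38 lay below 0, against 49.2% of all genes. Groups did not overlap for 1 member higher in females (Slc25a5) and for 7 lower (Slc25a4, Slc25a11, Slc25a12, Slc25a15, Slc25a26, Slc25a27 and Slc25a51), against 6.79% and 7.54% of all genes. Slc25a11, Slc25a12, Slc25a26 and Slc25a51 were lower without overlap in both conditions, which is 10.5% of the members, against 3.02% of all genes. The NAD carrier Slc25a51 stood at 53.9, 52.8 and 52.5 CPM in the exercised females, against 56.5, 61.2 and 59.0 CPM in exercised males, and at 53.0, 52.1 and 48.7 CPM in sedentary females, against 60.7, 54.8 and 59.4 CPM in sedentary males. Slc25a26 stood at 28.7, 30.4 and 30.1 CPM in the exercised females, against 32.2, 30.9 and 32.5 CPM in exercised males, and at 32.7, 27.9 and 30.01 CPM in sedentary females, against 33.6, 33.03 and 36.99 CPM in sedentary males. Each female library was below each male library of its condition for both genes.

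The carriers of cofactors and of pyrimidine nucleotides were picked out after their values were seen. Each gene was given a single role, and counts by role depend on this placing. All 8 genes placed in the role of these carriers had a log2 fold change below 0 in females against males. Their median was -0.19 in sedentary and -0.10 in exercised hearts, against 0.014 and 0.0037 for all genes. Over the 21 settings, 7 or 8 lay below 0, with medians from -0.21 to -0.14 in sedentary and from -0.12 to -0.091 in exercised hearts. Of the 7 tested carriers of adenine nucleotides and phosphate, 4 lay above 0 in each condition. Of the 6 tested amino acid and glutathione carriers, 5 lay below 0 in each condition. Carboxylate carriers lay below 0 for 4 of 6 in sedentary and 5 of 6 in exercised hearts, and orphans for 3 of 5 and 1 of 5. In the whole family, 26 of 38 lay below 0 in sedentary and 27 of 38 in exercised hearts. The 8 members included Slc25a16, Slc25a26, Slc25a32, Slc25a33, Slc25a36, Slc25a42 and Slc25a51. Beside these values stand differences in tissue. The summed level of the 8 cardiomyocyte markers was 59800 to 62000 CPM in sedentary females, against 63000 to 70100 CPM in sedentary males, and all 8 lay below 0 with a median of -0.14, while 6 of the 8 lay below 0 in exercised hearts with a median of -0.030. The summed atrial markers were 251 to 387 CPM in sedentary females, against 54.1 to 136 CPM in sedentary males. That range includes female sedentary 3, where Myl7 stood at 0.97 CPM, so the sum and Myl7 do not place this library alike. The part of tissue content in the sex difference was not tested.

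**Figure D4:**
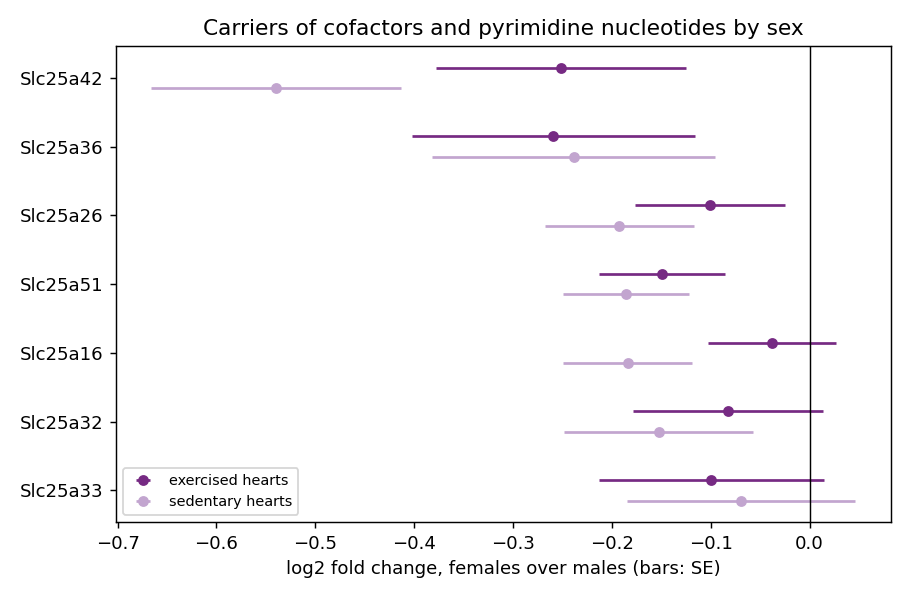
Log2 fold change of females over males for 7 of the 8 carriers of cofactors and pyrimidine nucleotides, in exercised and in sedentary hearts, with SE as bars. All points lie below 0, and Slc25a42 in sedentary hearts is lowest at -0.54.

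Other mitochondrial transport genes were read beside the family: 36 channels, pores, pyruvate carriers, calcium uniporter subunits and import factors, of which 35 were tested. In exercised against sedentary females 0 were called, where 0.0% of all genes were called. At an unadjusted p under 0.05 there were 3 higher and 0 lower, against 1.89% and 2.04% of all genes. Letm1, an ion exchanger of the inner membrane, averaged 134 ± 2.18 CPM in the exercised group and 118 ± 6.95 CPM in the sedentary group (SD, n = 3 each). In males 0 were called, where 0.0% of all genes were called. At an unadjusted p under 0.05, 2 were higher and 1 lower in males, against 4.24% and 3.6% of all genes.

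A list of enzymes read beside the shuttle carriers gave lower values in sedentary females against sedentary males. Of 10 such genes, all lay below 0 with a median of -0.18, where 47.6% of all genes lay below 0. Of the 10, 2 were called, where 2.21% of all genes were called. These 2, Cs and Gpd1, were named after their values were seen, and neither is an enzyme of the malate-aspartate shuttle. The 8 cardiomyocyte markers also all lay below 0 in this contrast, with a median of -0.14, and their part in these values was not tested. Citrate synthase, Cs, averaged 1138 ± 15.8 CPM in sedentary females and 1429 ± 29.5 CPM in sedentary males (SD, n = 3 each), with a log2 fold change of -0.33 ± 0.05 and an adjusted p of 0.00819 by edgeR's quasi-likelihood test. Gpd1, the cytosolic glycerol phosphate dehydrogenase, averaged 43.4 ± 4.34 CPM and 57.7 ± 3.76 CPM in the same groups, with -0.41 ± 0.09 and an adjusted p of 0.0394 by that test. The call of Cs remained with each library left out in turn, whereas that of Gpd1 was lost without female exercised 2, any 1 sedentary female, male sedentary 1 or male sedentary 3, and with only the sedentary groups fitted. With the atrial score as a covariate neither was called, at -0.317 for Cs and -0.495 for Gpd1. With the 9 libraries low in atrial transcripts, a fit that left 1 sedentary female library, the values were -0.315 for Cs and -0.59 for Gpd1. The part of atrial tissue in the values of Cs and Gpd1 was not tested. In exercised against sedentary females, 9 of the 10 lay above 0 with a median of 0.14, against 50.1% of all genes. At an unadjusted p under 0.05, 5 were higher, against 1.89% of all genes, but 0 were called, where 0.0% of all genes were called. In exercised against sedentary males, 4 of the 10 lay above 0 with a median of -0.02, against 50.1% of all genes. There, 1 was higher and 1 lower at an unadjusted p under 0.05, against 4.24% and 3.6% of all genes, and 0 were called. In exercised females against exercised males, 6 of the 10 lay below 0 with a median of -0.019, against 49.2% of all genes. In that contrast 0 of the 10 were called, where 0.16% of all genes were called. The comparison of sedentary females with sedentary males shares the sedentary females with the exercise comparison in females and the sedentary males with that in males, so their values are not independent.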

How the data were processed

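The deposited values are raw read counts by gene. Per the submitters' processing notes, the authors trimmed reads with Trimmomatic 0.36, aligned them with STAR 2.5.2b to GRCm38 and counted them with featureCounts of Subread 1.5.2. Annotation release, strand setting and kit: not given in the sources used here. Symbols came from GENCODE M21. Of 55401 rows, 55141 had a symbol, and every column matched a sample.

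Tests used edgeR 4.0.16 (R 4.3.3). After filterByExpr, 16213 genes remained, scaled by the trimmed mean of M-values, and CPM uses those scaled library sizes. A group-means model over 12 libraries left 8 residual degrees of freedom. The quasi-likelihood test was run for 6 contrasts with Benjamini-Hochberg adjustment over all tested genes at 0.05. Alternatives were DESeq2 1.42.0, voom of limma 3.58.1, RLE scaling, other filters, an adjusted p of 0.1, a covariate from 5 atrial genes, fits of the compared groups alone, and leaving out each library. The fit of 9 libraries with few atrial transcripts, which are those low in Myl7, was chosen after seeing the data.

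The members, gene lists, alternatives and rule for named genes were chosen with earlier results of these data known. In each exercise contrast and in their difference the rule named the 5 members of smallest p in each direction, 3 for the average and, in sex contrasts, 3 to 6, beside a panel whose levels are given whatever the result. Further members are named by level. The labels do not state that each library is a separate animal, and p-values then measure the spread between libraries. Libraries of a group differed beyond sampling noise, with a chi-square per degree of freedom from 9.13 to 33.2, and each counts as 1 replicate. Some results, among them those of 1 tested member, are not reported here, although it counts in the totals.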

Additional observations from a re-analysis of the deposited data

How the results depend on the processing

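The count of called members was 0 for the exercise contrasts, their difference and average, and the exercised sex contrast under every setting run. For sedentary females against sedentary males it was 1, and became 3 with DESeq2 (Slc25a42, Slc25a46 and Slc25a12) and 2 at an adjusted p of 0.1. It was 0 with voom, with the atrial covariate and with only the groups compared. Calls over all genes in this contrast also moved, from 358 with edgeR's quasi-likelihood test to 876 with DESeq2 and 458 with voom. They were 89 with the atrial covariate and 256 with only the groups compared. Leaving out each library in turn gave 0 to 1 members called, against 68 to 462 of all genes. The cause was not tested. Of 68 fold changes of named genes, 65 were not reversed by any setting run. Most of these genes were named for small p in these same libraries, and the settings reuse the same counts. The count therefore does not show that the directions would hold in other libraries. With the 9 libraries, Slc25a27 for exercise in females was 0.0071 and Slc25a28 for sedentary females against males was -0.014. Leaving out a library moved Slc25a24 in the difference of the exercise effects between -0.22 and 0.035. Leaving out 1 library moved 32 of the 68 by over 1.5 times. The 8 untested members held too few counts to pass the filter, and the part of depth in this was not tested. No paired analysis was possible because the labels give the groups no replicate number in common.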
